A study of Bos taurus with 30 samples.

Results

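The transcripts of 2 genes were followed here across all 30 libraries of the series: TLR4 (ENSBTAG00000006240), which encodes toll like receptor 4, and CD14 (ENSBTAG00000015032), which encodes the CD14 molecule. They are 2 of the 27607 genes in the deposited count table, and both were selected on their lower abundance after 24 h of storage, since the identifier of CD14 was taken by its symbol from the study's list of genes with lower abundance at 24 h and TLR4 stands in the same list. Their fall at 24 h against 1 h is therefore given as a description with no test. The libraries hold RNA of peripheral white blood cells (PWBCs), the nucleated cells of the buffy coat, from 5 crossbred Angus x Simmental beef heifers of breeding age. All 5 heifers were untreated except for estrus synchronization with GnRH, a progesterone insert and prostaglandin F2alpha, and were sampled at estrus, and there was no group without it. Blood was drawn into EDTA tubes, chilled at once, and processed at 1 h when drawn from the coccygeal vein of the tail (5 libraries). Blood from the jugular vein of the neck was processed at 1 h (5 libraries), at 3, 6 or 8 h (15 libraries) or at 24 h (5 libraries). Each heifer gave 1 tube to each vein and time. The heifer, called subject A to E, is known for the coccygeal libraries and for the jugular libraries of 1 h and 24 h. The 15 libraries of 3, 6 and 8 h were analysed as 1 group without heifer or exact time, because their columns could not be joined to single samples, and each heifer contributed 3 of them.

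TLR4 is the receptor through which myeloid cells sense lipopolysaccharide (LPS), the glycolipid of the outer membrane of Gram-negative bacteria. In the textbook pathway LPS is taken up by the LPS binding protein, passed to CD14 on the cell surface and loaded on the complex of TLR4 and LY96 (MD-2). The receptor then signals through adaptors, MYD88 among them at the membrane and TICAM2 and TICAM1 from endosomes, to NF-kB and interferon regulatory factors. CD14 has no signalling part of its own, and its transcript is the classical marker of blood monocytes, whereas TLR4 is present in monocytes, neutrophils and dendritic cells.

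TLR4 lies on chromosome 8 of ARS-UCD1.2 from position 107057826 to 107068836 on the forward strand, and its transcript is 3716 nucleotides long. CD14 lies on chromosome 7 from 51762895 to 51765768 on the reverse strand, with a transcript of 2790 nucleotides. Both are protein coding, and 0 other genes overlapped either of them in RefSeq's gene table of a later assembly (ARS-UCD2.0), which bears on the counts because fragments were counted without regard to strand. Counts were between 438 and 1559 per library for TLR4 and between 564 and 1842 for CD14, out of library totals of 12412619 to 19492274. Counting error alone is 2.53% to 4.78% of a TLR4 value and 2.33% to 4.21% of a CD14 value, which is less than the spread between subjects in every group. Abundance is given in CPM, the counts of a gene for every 1000000 counts of its library. Both genes passed the filter of a CPM above 1 in at least 5 libraries, as did 14018 genes in all. Averaged over the 30 libraries, TLR4 had 45.8 CPM and CD14 60.3 CPM, above 64.2% and 71.2% of the genes that passed, and the median gene had 25.5 CPM. Per kilobase of transcript, TLR4 stood above 41.2% and CD14 above 59.8% of the 1630 genes whose length is known and which were not chosen by outcome.

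The abundance of TLR4 in coccygeal blood at 1 h was 56.3 CPM in subject A, 24.9 in B, 55.2 in C, 67.1 in D and 52.1 in E (51.1 ± 15.7, SD, n = 5). In jugular blood at 1 h it was 66.5 CPM in subject A, 35.2 in B, 44.7 in C, 64.5 in D and 48.1 in E (51.8 ± 13.4, SD, n = 5). Subject B had the least TLR4 in both veins, and subjects A and D were the highest pair in both. The libraries of 3 to 8 h ranged from 26.2 to 94.6 CPM with a median of 42.9 (mean 46.3 ± 16.7, SD, n = 15). After 24 h it was 29.6 CPM in subject A, 28.6 in B, 36.5 in C, 37.3 in D and 34.6 in E (33.3 ± 3.97, SD, n = 5). By the mean, the order was jugular 1 h, coccygeal 1 h, jugular 3 to 8 h and jugular 24 h, and the means of the first 3 groups differed by less than the SD of any of them. The values of 24 h overlapped those of every other group. At 24 h the libraries of C and D were above the 1 h jugular library of B.

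CD14 in coccygeal blood at 1 h had 94.3 CPM in subject A, 31.8 in B, 77.4 in C, 62.7 in D and 58.7 in E (65.0 ± 23.2, SD, n = 5). In jugular blood at 1 h it had 89.5 CPM in subject A, 60.3 in B, 61.9 in C, 68.7 in D and 56.9 in E (67.4 ± 13.05, SD, n = 5). Subject A was the highest in both veins, whereas B was low in the coccygeal library alone. Among the libraries of 3 to 8 h CD14 ranged from 33.2 to 111.8 CPM with a median of 59.2 (mean 61.9 ± 19.6, SD, n = 15). After 24 h it had 46.4 CPM in subject A, 31.3 in B, 52.9 in C, 44.6 in D and 44.5 in E (43.9 ± 7.89, SD, n = 5). The group means stood in the same order as those of TLR4, and the first 3 means again differed by less than the SD of any of those groups. All 5 values of 24 h were below all 5 jugular values of 1 h, which was the case for 2.46% of the 14018 genes, and 4 of the 5 were above the coccygeal value of subject B.

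**Figure D1:**
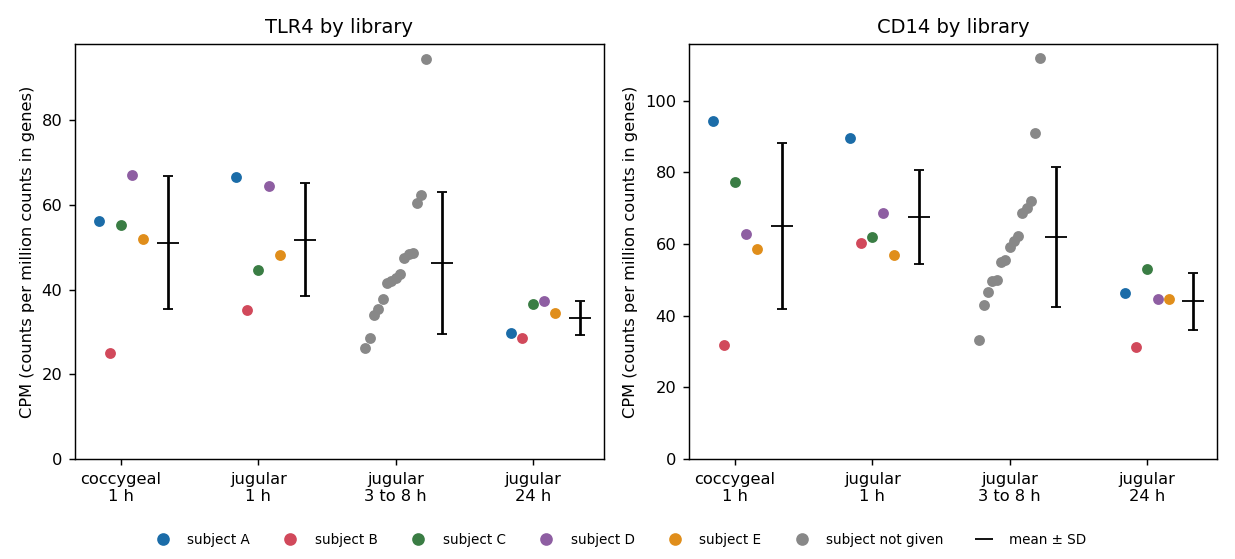
Abundance of TLR4 (left) and CD14 (right) in CPM on the vertical axis, for each of the 30 libraries by vein and storage time, colored by subject where the subject is known, with the group mean ± SD in black. The 5 libraries of 24 h sit between 28.6 and 37.3 CPM for TLR4 and between 31.3 and 52.9 CPM for CD14, and 1 library of 3 to 8 h has the highest value of both genes.

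Per kilobase of transcript, CD14 was more abundant than TLR4 in 30 of 30 libraries. The level per kilobase in jugular blood at 1 h was 24.2 ± 4.68 CPM for CD14 and 13.9 ± 3.61 CPM for TLR4 (SD, n = 5), and at 24 h it was 15.7 ± 2.83 CPM and 8.97 ± 1.07 CPM (SD, n = 5). The ratio of CD14 to TLR4 per kilobase was 1.71 ± 0.372 in coccygeal blood (SD, n = 5), 1.78 ± 0.327 in jugular blood at 1 h (SD, n = 5), 1.82 ± 0.291 at 3 to 8 h (SD, n = 15) and 1.76 ± 0.254 at 24 h (SD, n = 5). The group means of the ratio thus differed by less than the SD within any group. Over all libraries the ratio ran from 1.25, in the coccygeal library of subject D, to 2.39, in a library of 3 to 8 h.

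Storage of jugular blood for 24 h went with less of both transcripts in every heifer. In bulk libraries such as these, fewer cells of a type and less RNA per cell cannot be told apart. The percent difference of TLR4 from 1 h to 24 h was -55.5 in subject A, -18.7 in B, -18.3 in C, -42.2 in D and -28.2 in E. For CD14 the percent difference was -48.2 in A, -48.1 in B, -14.5 in C, -35.1 in D and -21.8 in E. Of all genes tested, 13.7% were lower at 24 h in 5 of 5 subjects. The log2 ratio within subjects averaged -0.60 ± 0.37 for TLR4 and -0.62 ± 0.33 for CD14 (SD, n = 5). TLR4 declined most in subject A, and subject C changed least in both genes. Subject B, by contrast, had a small change in TLR4 and a large one in CD14.

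The study's rule for a change was applied with the subject as a block. It asks that the p-value of edgeR's quasi-likelihood test and that of DESeq2's Wald test both stay under 0.05 after Benjamini-Hochberg adjustment (FDR), and that edgeR's log2 fold change exceed 0.5 in size. It called 361 of 14018 genes at 24 h (2.58%), of which 158 (1.13%) were lower. The fitted log2 fold change was -0.61 for TLR4 and -0.62 for CD14, values used in choosing them, and the median over all genes tested was 0.01. Without subject A the value for TLR4 was -0.47, inside the limit of 0.5, and for CD14 it was -0.54. Subject A also had the most counts for the 3 neutrophil markers matched here in its jugular library of 1 h, with a summed 226.5 CPM against 74.8 to 118.5 in the other subjects, and 96.8 CPM at 24 h. Their part in the fall of TLR4 was not tested.

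The heifers lay closer together at 24 h in TLR4, but not clearly so in CD14. TLR4 ranged 1.89-fold between the highest and the lowest subject in jugular blood at 1 h and 1.30-fold at 24 h, and its coefficient of variation was 25.9% and 11.9%. For CD14 the range was 1.57-fold at 1 h and 1.69-fold at 24 h, with coefficients of variation of 19.3% and 17.95%. No test was made of these spreads, which rest on 5 heifers.

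**Figure D2:**
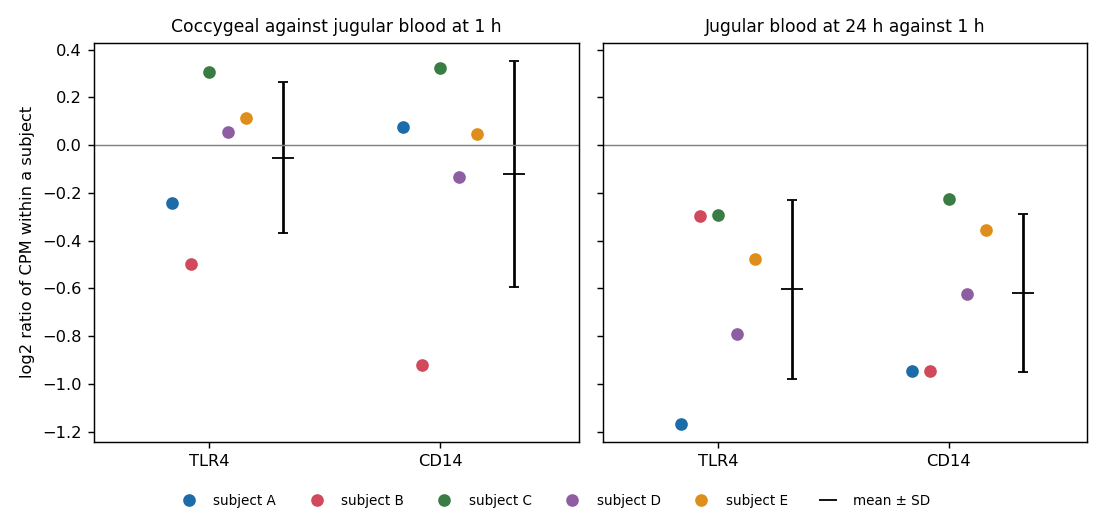
Log2 ratios of CPM within each of the 5 subjects (vertical axis) for TLR4 and CD14, between coccygeal and jugular blood at 1 h (left) and between jugular blood at 24 h and 1 h (right), with the mean ± SD in black. The ratios between veins lie on both sides of 0, and all 10 ratios between times lie below 0, as the choice of the genes on this contrast fixes in part.

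Whether the vein of sampling matters was asked by comparing coccygeal and jugular blood at 1 h in pairs, a contrast that did not serve to choose the genes, although it shares the jugular libraries of 1 h with the one that did. TLR4 was higher in coccygeal blood in 3 of 5 subjects, with a log2 fold change of -0.05 (edgeR's quasi-likelihood FDR = 0.9996, DESeq2 FDR = 0.9999). The 95% interval of the DESeq2 value, -0.05 with a standard error of 0.12, runs from -0.27 to 0.18, so that changes from 0.827-fold to 1.13-fold remain possible. CD14 was higher in coccygeal blood in 3 of 5 subjects too, with a log2 fold change of -0.11 (edgeR FDR = 0.9996, DESeq2 FDR = 0.9999) and a wider interval in DESeq2, from -0.52 to 0.29 (standard error 0.21). An exact sign-flip permutation test of the log2 ratios gave p = 0.75 for either gene (two-sided, n = 5, smallest possible p 0.0625). The group means of the veins differed by less than the SD between subjects in either vein. Single subjects could differ by more, as B did in CD14 (31.8 against 60.3 CPM). Across all 14018 genes this comparison called 0 genes (0%), with 0 under an FDR of 0.05 in edgeR and 0 in DESeq2, and 278 and 101 genes had an unadjusted p under 0.05.

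The largest difference between the veins was in subject B. Its coccygeal library differed from its jugular library by -47.2% in CD14, with 31.8 against 60.3 CPM, and by -29.2% in TLR4. Without subject B the log2 fold change between veins was 0.06 for TLR4 and 0.08 for CD14, of the opposite sign. The 8 monocyte markers matched besides CD14 summed to 563 CPM in that coccygeal library, the lowest of the 15 libraries with a subject but for one (537 CPM, subject B at 24 h), and to 730 CPM in the jugular library. The 5 platelet markers summed to 1036 CPM in the same coccygeal library against 505 to 636 CPM in the other 4, and the 10 T cell markers to 1968 CPM against 1187 to 1718. The part of cell composition in the low values of subject B was not tested.

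The libraries of 3 to 8 h were compared with the coccygeal libraries of 1 h. None of these 20 libraries is in the contrast of 24 h against 1 h that chose the genes. The study fitted all jugular libraries together, however, so that those of 3 to 8 h could have entered the fit behind that choice. The vein differs along with the time in this comparison, the same heifers are in both groups, and no block could be fitted. TLR4 had a log2 fold change of -0.14 (edgeR FDR = 0.99995, DESeq2 FDR = 0.99995) and an interval from -0.63 to 0.36 in DESeq2 (-0.14, standard error 0.25). CD14 had a log2 fold change of -0.07 (edgeR FDR = 0.99995, DESeq2 FDR = 0.99995) with an interval from -0.53 to 0.40 (standard error 0.24). As folds these intervals run from 0.647 to 1.28 for TLR4 and from 0.692 to 1.32 for CD14, so that changes of this size were not detectable here. No gene was called in this comparison either (0 of 14018, 0%), with 0 under an FDR of 0.05 in edgeR and 0 in DESeq2, and 182 and 220 genes had an unadjusted p under 0.05.

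Against the jugular groups, the 15 libraries of 3 to 8 h spread over both. For TLR4, 3 of them were below the lowest and 1 was above the highest jugular library of 1 h, and 11 were above the highest library of 24 h. For CD14, 7 were below the lowest and 2 above the highest jugular library of 1 h, and 10 were above the highest of 24 h. Most libraries of 3 to 8 h thus held more of either transcript than any library of 24 h. These positions share libraries with the contrast that chose the genes and were not tested.

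One library of 3 to 8 h stood apart from the other 14 in both genes, with 94.6 CPM of TLR4 where the next had 62.3, and 111.8 CPM of CD14 where the next had 91.1. The same library had the highest MYD88 of the 15 (655 CPM, others 213 to 368) and the highest NAIP (424 CPM, others 75.9 to 214.5). It was also highest in NCF1, a subunit of the NADPH oxidase of phagocytes (378 CPM, others 57.8 to 172), and in BMX, a kinase of neutrophils (30.3 CPM, others 0.0555 to 13.3). The 3 neutrophil markers summed to 409 CPM there against 58.9 to 187 in the other 14 libraries, the 8 monocyte markers to 1122 against 601 to 988 CPM, and the 10 T cell markers to 981 CPM, the lowest of the 15. Neither the time nor the heifer of this library is known here, and whether its cell composition set its TLR4 was not tested. Without it the comparison with coccygeal blood gave a log2 fold change of -0.25 for TLR4 and -0.16 for CD14.

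The other genes of TLR4 signalling were taken from a list of 37 symbols, of which 7 could be matched to identifiers in a run of the study's gene table that is not ordered by outcome. LY96, LBP, TICAM1 and the remaining symbols were not analysed here. None of the 7 was called at 24 h, against 2.58% of all genes. By the FDR alone 1 of 7 passed in edgeR and 0 in DESeq2, where 11.9% and 10.4% of all genes did, and 3 had an unadjusted p under 0.05 in each tool, where 28.1% of all genes did in edgeR and 21.1% in DESeq2. Their median log2 fold change was -0.17, and 5 of 7 were below 0, as were 48.1% of all genes. The adaptor MYD88 had 275 ± 73.9 CPM after 1 h and 229 ± 16.996 after 24 h (SD, n = 5), a log2 fold change of -0.23 (edgeR FDR = 0.12, DESeq2 FDR = 0.076), and was lower in 5 of 5 subjects. TICAM2, which links TLR4 to TICAM1 at endosomes, had 34.9 ± 5.29 and 29.5 ± 4.18 CPM (SD, n = 5), and a log2 change of -0.24 (edgeR FDR = 0.0449, DESeq2 FDR = 0.0912). The third adaptor matched, SARM1, which restrains TICAM1, had a log2 fold change of 0.00.

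Downstream of the adaptors, the kinase MAP3K7 (TAK1), which activates the NF-kB and MAP kinase branches, had 64.7 ± 3.77 CPM after 1 h and 63.0 ± 6.72 after 24 h (SD, n = 5) and a log2 fold change of -0.04. MAP2K6, which activates p38 kinases, had one of -0.17, and NFKBIB, an inhibitor that holds NF-kB in the cytoplasm, one of 0.05. TNFAIP3 (A20), the ubiquitin-editing inhibitor of the pathway, had 40.8 ± 2.40 and 35.2 ± 2.91 CPM (SD, n = 5) and a log2 change of -0.21 (edgeR FDR = 0.0795, DESeq2 FDR = 0.156), and was lower in 5 of 5 subjects. The falls of TLR4 and CD14 were thus larger in size than those of all 7 genes, a description that follows in part from how the 2 genes were chosen.

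Of the other pattern recognition receptors, which sense microbial products beside LPS, 9 of 21 listed symbols were matched in the same run of the table and 0 were called at 24 h in both tools with the fold change threshold. By FDR alone 1 of 9 passed in edgeR and 2 in DESeq2 (11.9% and 10.4% of all genes), 5 and 4 had an unadjusted p under 0.05 (28.1% and 21.1% of all genes), and the median log2 fold change was -0.22. NAIP, which senses flagellin and secretion system proteins of bacteria, had 168 ± 59.1 CPM after 1 h and 111 ± 14.5 after 24 h (SD, n = 5), was lower in 5 of 5 subjects and had a log2 fold change of -0.53 (edgeR FDR = 0.135, DESeq2 FDR = 0.131). NLRP3, the sensor of the inflammasome that LPS primes, had 31.6 ± 6.81 and 23.4 ± 5.73 CPM (SD, n = 5), and a log2 change of -0.44 (edgeR FDR = 0.0705, DESeq2 FDR = 0.0182). UNC93B1, the chaperone of endosomal toll like receptors, was higher at 24 h in 5 of 5 subjects, from 310 ± 38.7 to 372 ± 35.5 CPM (SD, n = 5) by a log2 change of 0.27 (edgeR FDR = 0.013, DESeq2 FDR = 0.00151) that is inside the limit of 0.5. TLR5, the receptor of flagellin, was scarce, with 2.65 ± 1.51 CPM at 1 h (SD, n = 5). NOD2, which senses muramyl dipeptide, and NLRC4, the partner of NAIP, come from the study's own lists of changed genes, so that their log2 fold changes of -0.54 and -0.60 are no independent evidence.

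Genes that NF-kB induces after LPS were read as a further group. Of 22 listed symbols, 9 were matched outside the study's lists and 0 of them were called (0 by FDR in either tool, 1 with an unadjusted p under 0.05 in each, against 28.1% and 21.1% of all genes). Of the 9, 7 had a log2 fold change below 0, and the median was -0.14. IL1B, the cytokine interleukin 1 beta, had 61.1 ± 66.4 CPM after 1 h and 37.0 ± 16.1 after 24 h (SD, n = 5), a difference within the spread, and subject A alone had 178.6 CPM at 1 h. Of the 3 matched through the study's lists, the neutrophil chemokines CXCL8 and CXCL5 had greater abundance at 24 h, from 23.3 ± 8.19 to 39.4 ± 14.9 CPM and from 4.97 ± 2.01 to 8.83 ± 2.94 CPM (SD, n = 5), and CXCL2 had 0.494 ± 0.182 and 1.14 ± 0.764 CPM (SD, n = 5). Those 3 were chosen on these libraries.

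**Figure D3:**
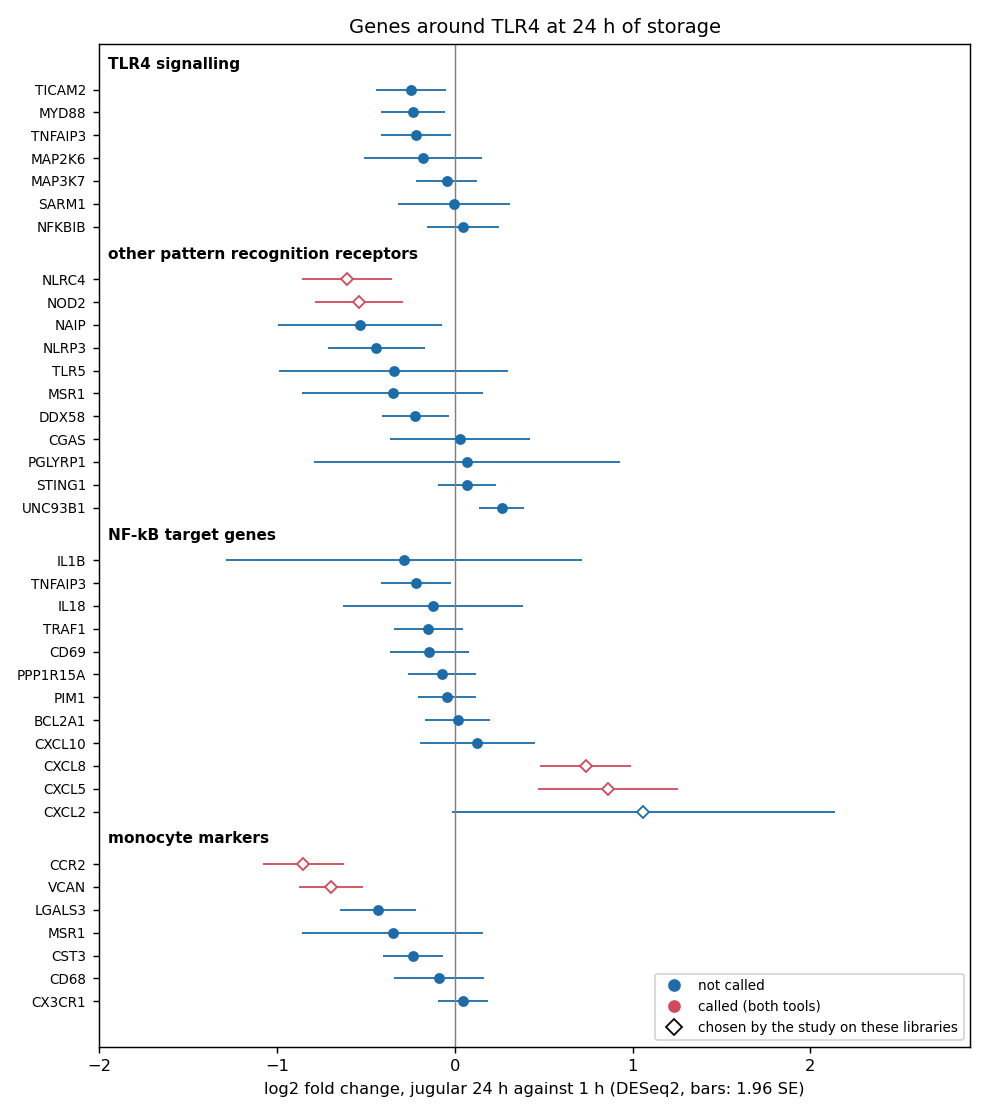
Log2 fold changes in DESeq2 of jugular blood at 24 h against 1 h (horizontal axis, bars are the 95% interval) for matched genes of 4 lists, TLR4 and CD14 left out. Red marks genes called in both tools, and open diamonds mark genes that the study chose on these libraries; the 7 genes of TLR4 signalling lie between -0.24 and 0.05 in edgeR.

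The study's tables list 8 further genes with TLR4 or CD14 under gene ontology terms that name lipopolysaccharide, all of them chosen for lower abundance at 24 h. P2RX7, the ATP receptor that triggers the inflammasome, and CD6, a receptor of T cells that can bind bacterial LPS, share the term for LPS binding with both genes. P2RX7 had 4.62 ± 1.18 CPM after 1 h and 3.18 ± 0.849 after 24 h (SD, n = 5), and CD6 had 91.5 ± 3.02 and 65.0 ± 14.05 CPM (SD, n = 5). Others were the chemokine receptor CCR7, the prostaglandin receptor PTGER4, the thrombin receptor F2R, the cytokine receptor IL23R and NOD2. Over the 8 genes the log2 fold change at 24 h was between -0.93, in IL23R, and -0.52, in CD6. In the comparisons other than 24 h against 1 h, between veins and between 3 to 8 h and coccygeal blood, each of the 8 had an edgeR FDR of at least 0.9996. CCR7, CD6 and IL23R are known mainly from lymphocytes.

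Markers of the cells that carry TLR4 and CD14 were read beside them. Monocyte markers other than CD14 comprised 6 genes matched in the run of the gene table that is not ordered by outcome. The list itself was drawn up with earlier results of these data known. None of the 6 was called at 24 h (2 by FDR in edgeR and 2 in DESeq2, 3 and 2 with an unadjusted p under 0.05, where all genes had 11.9%, 10.4%, 28.1% and 21.1%), and their median log2 fold change was -0.16. LGALS3 (galectin 3) had 106 ± 9.18 CPM after 1 h and 79.7 ± 12.8 after 24 h (SD, n = 5), a log2 fold change of -0.43 (edgeR FDR = 0.0413, DESeq2 FDR = 0.00185), whereas CX3CR1, the fractalkine receptor of patrolling monocytes, had 205 ± 88.4 and 209 ± 77.3 CPM (SD, n = 5). CD68, a lysosomal protein, had a log2 fold change of -0.09. CST3 (cystatin C) had one of -0.23 (edgeR FDR = 0.0495, DESeq2 FDR = 0.0495). The scavenger receptor MSR1 had one of -0.35 (edgeR FDR = 0.164, DESeq2 FDR = 0.465). Both were lower in 5 of 5 subjects, as were 13.7% of all genes. Of the 6 markers, 5 had a log2 fold change below 0, where 48.1% of all genes did. The 6 genes summed to 407 to 642 CPM in jugular blood at 1 h, 385 to 649 CPM in coccygeal blood, 363 to 640 CPM at 3 to 8 h and 363 to 587 CPM at 24 h. These ranges overlap, and within heifers the sum was lower at 24 h than in jugular blood at 1 h in 4 of 5. CCR2 and VCAN, markers of classical monocytes that the study listed as lower, had log2 fold changes of -0.85 and -0.69, and with them the monocyte sum was 730 to 928 CPM at 1 h and 537 to 799 CPM at 24 h, lower in 5 of 5 heifers, as were TLR4 and CD14. No matched monocyte marker was at 0 in any group. How far these markers account for the fall of CD14 and TLR4 was not tested.

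Markers of other cell types differed in direction at 24 h, where 2.58% of all genes were called and 1.13% were called lower. The 3 neutrophil markers (BMX, NCF1 and PGLYRP1) summed to 74.8 to 226.5 CPM at 1 h and 83.2 to 108 CPM at 24 h, with 0 of 3 called (0 by FDR in either tool, 1 with an unadjusted p under 0.05 in each, against 28.1% and 21.1% of all genes). PGLYRP1, a peptidoglycan binding protein of neutrophil granules, had only 1.08 ± 0.358 CPM at 1 h (SD, n = 5), so that this list rests mainly on NCF1. Of 4 T cell markers outside the study's lists, 2 were called lower, among them CD4, the coreceptor of helper T cells, with a log2 fold change of -0.62 (edgeR FDR = 0.0148), the same size as CD14. The 4 summed to 637 to 914 CPM in jugular blood at 1 h and 421 to 657 CPM at 24 h. These ranges overlap, and the sum was lower at 24 h in 5 of 5 heifers. With those chosen by the study on these libraries, the 10 T cell markers summed to 1175 to 1737 CPM at 1 h and 676 to 1147 CPM at 24 h. Their lack of overlap follows in part from that choice. Among the chosen, the cytokine receptor IL7R, the transcription factor LEF1 and the costimulatory receptor CD28 had log2 fold changes of -0.90, -0.90 and -0.66. The B cell markers CD79A and FCRL5, with log2 fold changes of 0.18 each, were not called, and 0 of 4 markers of NK cells were. Of these, the pore-forming protein PRF1 was lower in 5 of 5 subjects with a log2 fold change of -0.32 (edgeR FDR = 0.0199, DESeq2 FDR = 0.00491), inside the limit of 0.5. GZMM (granzyme M) had a log2 fold change of -0.24 (edgeR FDR = 0.367, DESeq2 FDR = 0.525) and was lower in 3 of 5 subjects. The receptor S1PR5 went the other way, with 0.15 (edgeR FDR = 0.296, DESeq2 FDR = 0.461), and was higher in 4 of 5 subjects. The eosinophil marker IL5RA was called lower (log2 fold change -0.56, edgeR FDR = 0.0231) while CCR3 was not. Of 3 platelet markers outside the study's lists, GNG11 and NRGN were called higher, with log2 fold changes of 0.57 and 0.67 (edgeR FDR = 0.00246 and 0.00731). The other, THBS1, was not called (log2 fold change 0.09, edgeR FDR = 0.784, DESeq2 FDR = 0.911) and was higher in 3 of 5 subjects. The endothelial and platelet genes VWF and SELP, chosen by the study, had log2 fold changes of 0.68 and 0.63. KIT, a marker of mast cells, was lower in 5 of 5 subjects with a log2 fold change of -0.37 (edgeR FDR = 0.015, DESeq2 FDR = 0.0259), inside the limit of 0.5. GATA1, of red cell precursors, was not called and had one of 0.03, and GATA2, a basophil and mast cell factor that the study had listed, had 2.94 ± 2.75 CPM after 1 h and 0.559 ± 0.308 after 24 h (SD, n = 5).

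The genes whose pattern was most like that of TLR4 were ranked by Pearson's r of log2(CPM + 1) over the 30 libraries among 14017 genes. These libraries share 5 heifers, so that r describes them and carries no test. The gene most like TLR4 was ENSBTAG00000009717 (r = 0.971), which has no symbol in the tables used, and NAIP came next with r = 0.960. NOD2 was at rank 4 (r = 0.943) and PAPSS2, an enzyme that makes the sulfate donor of sulfation, at rank 5 (r = 0.941). The other 6 of the first 10, at r = 0.928 to 0.960, have no symbol in the tables. Next among the genes not chosen by outcome were FAM135A at rank 20 (r = 0.918), NLRP3 at rank 26 (r = 0.910) and NDRG1 at rank 39 (r = 0.897). CD14 stood at rank 83 (r = 0.860). NOD2 and CD14 were chosen as lower at 24 h, as TLR4 was, so that their r follows in part from that choice. MYD88 stood at rank 635 (r = 0.671), and SARM1 at rank 11038 with r = -0.454. For comparison, the median r over all genes was -0.13, and 36 genes (0.257%) had r above 0.9.

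NAIP illustrates the likeness to TLR4. It had 70.6 CPM in the coccygeal library of subject B, its lowest value, where TLR4 was lowest too, and 424 CPM in the library of 3 to 8 h with the highest TLR4. Without that library r was 0.956 and NAIP kept rank 2. Spearman's rho was 0.961, the highest of all genes. With the mean of each subject removed, over the 15 libraries with a subject, r was 0.943 and NAIP fell to rank 31, while NOD2 was at rank 2 (r = 0.971) and NLRP3 at rank 19 (r = 0.952). Those 15 libraries include the 10 on which the study chose TLR4 and NOD2 as lower at 24 h, so that their likeness there follows in part from that choice.

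For CD14 the 10 most like genes had no symbol in the tables used, at r = 0.904 to 0.941, led by ENSBTAG00000013631. The first with a symbol outside the study's lists were PAPSS2 at rank 12 (r = 0.902), KLHL8 at rank 24 (r = 0.886), VSTM1, an inhibitory receptor of myeloid cells, at rank 28 (r = 0.882), LGALS3BP at rank 41 (r = 0.871) and PKM, the glycolytic pyruvate kinase, at rank 52 (r = 0.866). NOD2 was at rank 22 (r = 0.888) and TLR4 at rank 64. Among the monocyte markers the most like CD14 over the 30 libraries was MSR1, the macrophage scavenger receptor (rank 70, r = 0.854), and the least like was CX3CR1 (r = 0.034). With the mean of each subject removed, VCAN was the most like of these markers (rank 12, r = 0.963) and MSR1 stood at rank 163 (r = 0.889). VCAN was itself chosen as lower at 24 h on these libraries. Of the 100 genes most like TLR4, 43 were among the 100 most like CD14.

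**Figure D4:**
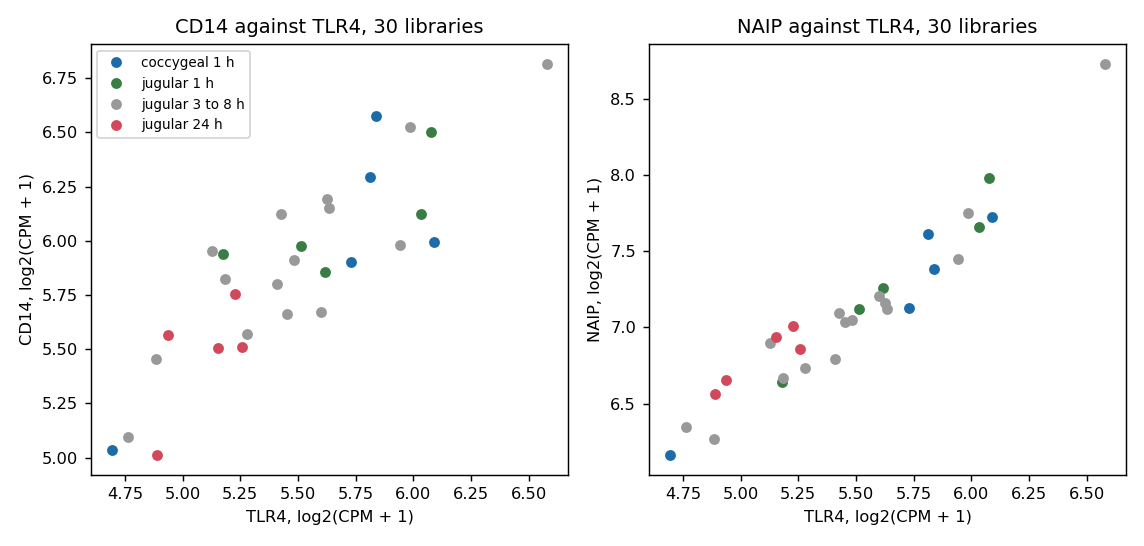
CD14 (left) and NAIP (right) against TLR4, each as log2(CPM + 1), with 1 point for each of the 30 libraries colored by vein and time. NAIP follows TLR4 more closely (r = 0.960) than CD14 does (r = 0.860), and 1 library of 3 to 8 h lies at the upper end of both panels. CD14 and TLR4 were both chosen as lower at 24 h, so that their r follows in part from that choice.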

How the data were processed

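RNA of PWBCs was sequenced from TruSeq stranded mRNA libraries as read pairs. Per the labels and the study's methods, the authors trimmed adapters with cutadapt 2.8, aligned with HISAT2 2.2.0 to ARS-UCD1.2, filtered with SAMtools 1.10, discarded duplicates and assigned fragments to Ensembl genes by featureCounts (Subread 2.0.1), and they deposited raw counts of 27607 genes in 30 columns. The supplementary code counted without strand and names the vein, time and subject of 15 columns; the other 15 were taken as 3 to 8 h by elimination.

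Here, the filter kept 14018 genes whose CPM exceeded 1 in at least 5 of the 30 libraries. R 4.3.3 was used with edgeR 4.0.16 (quasi-likelihood, library size scaling, robust, legacy fit) and DESeq2 1.42.0. Paired comparisons had the subject as a block: deviations from group means correlated between libraries of 1 subject (r = 0.411 to 0.862 between veins, 0.539 to 0.682 between times). Each comparison had its own fit, and p-values were adjusted over all genes. Alternatives covered the scaling, the filter, the tool, the threshold, the block and each subject left out. The study's filter on FPKM was not applied, and its columns of fold changes and p-values were not used. Symbols, lengths and coordinates came from its supplementary tables (1807 genes named, 1630 of them in an uninterrupted run of identifiers, the rest chosen by outcome). No sequence is shown, since none was given for these genes.

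The members and lists were chosen with earlier results of these data known. Named were TLR4 and CD14, all 7 matched genes of TLR4 signalling, up to 4 genes of each other list (called genes first, then the largest log2 fold changes), genes sharing LPS terms, and the genes most like the members by rank. CD68, CX3CR1, CST3, UNC93B1, TLR5 and the genes of the library that stood apart were added after their values were seen. Some matched genes are counted in their lists but not reported here by name. Total counts of 12412619 to 19492274 put 3 counts at 0.154 to 0.242 CPM, for counting error only. On simulated counts of the 14018 genes, 89 of 100 genes changed by 1 log2 unit were called at 24 h against 1 h and 92 of 100 at 3 to 8 h against coccygeal blood, with 4 and 12 false calls. For 3 to 8 h against coccygeal blood the simulation had no heifer effect, whereas the real libraries share heifers. Its rates may thus not hold for that comparison. No change below 1 log2 unit was simulated, so that changes of the size of TLR4 and CD14 at 24 h are not covered.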

Additional observations from a re-analysis of the deposited data

Results flagged for a closer look

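In groups of 5 libraries, 213 sets of values (TLR4, CD14, the named genes and the list sums, each in 3 groups) were examined for a library whose gap to the nearest other exceeds Dixon's 95% critical value. For normal values chance gives about 1 in 20, which is 5%, and 21 sets (9.86%) passed. The list sums contain named genes and the sets share libraries, so that the sets are not independent. The difference between these shares is therefore no measure of an excess. TLR4 and CD14 were not among them in any group. No test was made of the causes.

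Of the 21 libraries, 8 were the jugular library of subject A at 1 h, which was the highest in each. It had 405 CPM of MYD88 (others 219 to 253), 178.6 of IL1B (18.1 to 42.0), 20.9 of BMX (0.978 to 1.92), 70.0 of VSTM1 (43.9 to 51.0) and 169.9 of LGALS3BP (119 to 131). Its summed level was 592 CPM for TLR4 signalling (413 to 463), 668 for NF-kB targets (414 to 464) and 226.5 for neutrophil markers (74.8 to 118.5). The same library had the highest TLR4 and CD14 of its group, at 66.5 and 89.5 CPM.

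Another 5 were the coccygeal library of subject B, which had the lowest TLR4 and CD14 of its group. NLRP3 was lowest there at 14.6 CPM (others 34.5 to 40.0). CXCL8 was highest at 60.1 CPM (14.4 to 26.0), CCR3 at 69.8 (25.5 to 37.5), the eosinophil sum at 80.9 (36.1 to 47.9) and the platelet sum at 1036 CPM (505 to 636).

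In subject A at 24 h, GATA2 was highest at 1.096 CPM (0.330 to 0.505), VWF highest at 183 (69.2 to 97.5) and P2RX7 lowest at 1.70 (3.41 to 3.90). The remaining 5 were PGLYRP1 at 2.03 CPM in coccygeal blood of subject A (0.955 to 1.23), NLRC4 at 16.9 in jugular blood of subject B at 1 h (26.6 to 30.1), TICAM2 at 43.999 in that of subject D (30.2 to 34.1), and, at 24 h, MAP3K7 at 74.7 in subject C (58.1 to 61.5) and GZMB at 24.1 in subject D (0.455 to 4.58).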

How the results depend on the processing

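Having been chosen as lower at 24 h on these libraries, TLR4 and CD14 were lower in 10 of 10 alternatives each, which is no independent support. Leaving out each subject in turn gave log2 fold changes of -0.69 to -0.47 for TLR4 and -0.72 to -0.54 for CD14. The count of genes called at 24 h, 361, was 30 with no replicate block, 1301 with no threshold on the fold change and 28 when the log2 fold change had to exceed 1 in size. It ranged from 156 to 396 when subjects were left out, with 156 without subject A and 237 without B. Between veins there were 0 calls with and without the replicate block. No paired analysis was possible for 3 to 8 h against coccygeal blood because those libraries carry no subject. Between veins, leaving out subjects gave -0.13 to 0.06 for TLR4 and -0.22 to 0.08 for CD14, with the sign turned for TLR4 without subject A (0.0013) and without B (0.055), and for CD14 without B (0.077). Between 3 to 8 h and coccygeal blood it gave -0.32 to -0.03 for TLR4 and -0.24 to 0.10 for CD14, turned without the coccygeal library of A (0.10) and of C (0.00051). The causes were not tested, and the adjusted p stayed at 0.995 or more in each of these settings. Both comparisons, and the 7 genes of TLR4 signalling at 24 h, had 0 calls in every setting run. Of the 10 genes most like TLR4, 2 were shared with the 10 most like it within subjects. For CD14, 2 were shared with those by Spearman's rho and 0 with those within subjects. With 5 heifers, TLR4 could differ between veins by the 0.827-fold to 1.13-fold of its interval without being detected, and counting error (at most 4.78%) is not what limits this. Leaving out the library of 3 to 8 h with the highest TLR4 was chosen after its values were seen.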
